A study of Mus musculus with 6 samples.

Results

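The constitutive proteasome subunits are the 34 genes named Psma1 to Psma7, Psmb1 to Psmb7, Psmc1 to Psmc6 and Psmd1 to Psmd14, chosen by symbol alone from the 23359 gene symbols of the expression table, with the inducible subunits Psmb8, Psmb9 and Psmb10 left out. All 34 were in the table on 1 row each, and all 34 averaged 1 FPKM or more over the libraries, the minimum for testing. Polyadenylated RNA of mouse bone marrow was sequenced from 3 Gab2 -/- libraries, here null A to C, and 3 Gab2 +/+ libraries, here WT A to C. GAB2 is a docking adaptor that carries cytokine receptor signals to SHP2 and phosphatidylinositol 3-kinase, and the series is concerned with its part in transformation by BCR-ABL1, which no library label names. The sources used here do not give strain, age, sex, any culture or sorting, how the null allele was made, or whether the letters mark separate animals. The p-values therefore reflect the spread between these 6 libraries alone, which may be technical.

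The proteasome degrades proteins tagged with ubiquitin. Its core, the 20S particle, is a barrel in which outer rings of alpha subunits gate the entrance and inner rings of beta subunits carry the proteolytic sites. The 19S regulatory particle caps the barrel: its base holds a ring of ATPases that unfold substrates, and its lid removes ubiquitin. Cells with high rates of growth and protein synthesis carry abundant proteasomes. The catalytic beta subunits can be exchanged for inducible ones, for example under interferon.

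Values are FPKM as deposited, fragments scaled to transcript length and library size, so levels of different subunits can be set side by side. The size of the steps between low values gave depths of roughly 16.98 M to 67.61 M fragments (M, mega), and small RNA genes held between 6.01% and 31.4% of the summed FPKM of a library. Gab2 itself read 0.123, 0.145 and 0.203 FPKM in null A, B and C, against 3.33, 3.10 and 2.43 FPKM in WT libraries A to C (exact two-sided permutation p = 0.1, the smallest that 3 against 3 allow). Of the marrow cell types, only B-lineage markers were abundant, with a summed level of 4235 to 4304 FPKM in null and 3087 to 3287 FPKM in WT over 12 genes. All 8 granulocyte markers had group means under 0.1 FPKM, with Elane, S100a8 and S100a9 at 0 in all 6 libraries. Low means in both groups were also found for 6 of 7 T and NK cell, 4 of 6 erythroid, 4 of 6 stromal and endothelial and 3 of 6 monocyte markers, with Cd4, Hba-a1, Col1a1, Col1a2 and Cd14 at 0. Summed levels were 3.03 to 3.99 FPKM in null and 0.809 to 0.999 FPKM in WT for monocyte markers, 0.0892 to 0.222 FPKM in null and 7.51 to 58.8 FPKM in WT for erythroid markers, and 24.6 to 25.5 FPKM in null and 10.5 to 11.7 FPKM in WT for stromal and endothelial markers. T and NK cell markers summed to 0.370 to 0.466 FPKM in null and 0.0955 to 0.255 FPKM in WT. The monocyte, erythroid and stromal sums each rested mainly on 1 gene: Lyz2 averaged 2.85 FPKM in null and 0.413 FPKM in WT, Hbb-b1 0.000193 FPKM in null and 24.7 FPKM in WT, and Pecam1 24.9 FPKM in null and 11.1 FPKM in WT. The monocyte marker Ccr2 went the other way, at 0.0710 FPKM in null and 0.344 FPKM in WT. The part of these cells in the results was not tested. In bulk RNA, fewer cells of a type and less RNA per cell cannot be told apart.

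Promoters of the members are shown first as a description, and their part in the changes was not tested. RefSeq promoters on GRCm38.p6, reaching from 250 bases before to 50 after the start, matched 28 of the 34 members with 30 entries. They were searched on both strands for CCGGAAG, a core bound by ETS factors, for TGACNNNGC, the core of the antioxidant response element that NFE2L1 binds, for the CCAAT box and for the E-box CACGTG, which is its own reverse complement. The ETS letters stood in 11 of the 30 member entries, which belong to 10 of the 28 members, while 8.86% of all 32851 promoter entries held them. The antioxidant core stood in 5 of the 30 entries (12.4% of all entries), CCAAT in 11 (37.4% of all entries) and CACGTG in 2 (7.15% of all entries). The next stretches show ETS letters in capitals within 250 bases before the start, read 5′ to 3′ on the strand of the gene, so that CTTCCGG is the same motif on the opposite strand. They are 1 base-particle or lid gene per line.

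Psmd12: gagcgggcgaCTTCCGGtgcgagtgac
Psmd6: agagacgcgaCCGGAAGtcagactggc
Psmc6: ggcgggccagCCGGAAGgggcggagcc
Psmc1: ggtggatgcaCTTCCGGcggtggcgat
Psmd2: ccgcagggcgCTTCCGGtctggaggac
Psmd4: tacagctgttCCGGAAGctgctgcgaa

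The stretches lie at chr11:107479501-107479527 (plus strand, Psmd12), chr14:14120974-14121000 (minus strand, Psmd6), chr14:45329714-45329740 (plus strand, Psmc6), chr12:100110164-100110190 (plus strand, Psmc1), chr16:20651616-20651642 (plus strand, Psmd2) and chr3:95042723-95042749 (minus strand, Psmd4). Among the subcomplexes the ETS letters were in 3 of 5 ATPase promoters, 4 of 6 lid promoters and 2 of 3 promoters of Psmd1, Psmd2 and Psmd4, but in 1 of 7 alpha-ring and 0 of 4 beta-ring promoters. The antioxidant core lay closest to the start in Psmb5, Psmb6 and Psmd9, shown with the core in capitals.

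Psmb5: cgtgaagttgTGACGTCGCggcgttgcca
Psmb6: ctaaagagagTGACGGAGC
Psmd9: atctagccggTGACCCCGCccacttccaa

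These stretches lie at chr14:54618024-54618052 (minus strand), chr11:70525338-70525356 (plus strand) and chr5:123228149-123228177 (plus strand). The remaining cores stood farther out, in Psmc6 and Psmd12, on the opposite strand. In those 2 promoters, the ones that held both motifs, the matches did not overlap. A match describes letters only. The 10 members with ETS letters had a median log2 change of -0.81 (range -1.04 to -0.27) and the 18 without them -0.75 (range -1.03 to -0.10).

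In the null libraries 33 of the 34 subunits fell and 0 rose, by limma on log2(FPKM + 1) with Benjamini-Hochberg adjustment over 9916 tested genes at 0.05. The background was itself large: 42.0% of all tested genes were called lower and 23.3% higher. The median log2 change of the members was -0.75, against -0.13 for all tested genes, and 13.5% of tested genes fell at least as far as the median member. The null mean was between 47.7% (Psmd12) and 91.9% (Psmd9) of the WT mean, with a median member at 59.0%. Null and WT values did not overlap for 32 of the 34, always with null below WT, against 71.0% of tested genes without overlap in either direction and 45.1% with every null value below every WT value. Abundant genes as a class fell in null: of 1063 tested genes averaging 50 FPKM or more, 68.4% were called lower, with a median of -0.58. The 24 members at that level were all called lower, with a median of -0.79. The share of summed protein-coding FPKM held by the 34 genes was 0.762%, 0.717% and 0.772% in null A, B and C, against 1.009%, 1.003% and 0.938% in WT A, B and C.

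**Figure D1:**
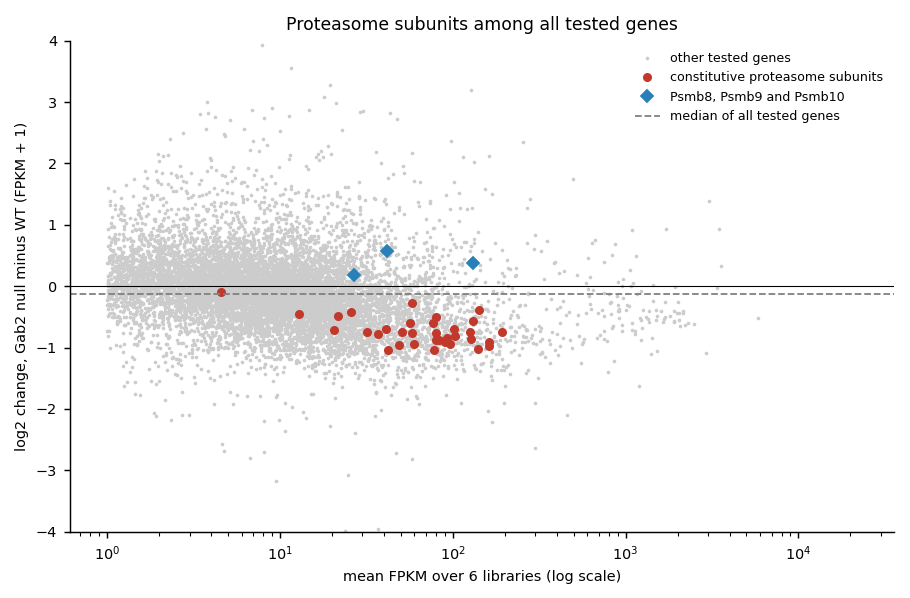
Log2 change (null minus WT, on FPKM + 1) against mean FPKM over the 6 libraries on a log axis, 1 point per tested gene, with 13 genes beyond the limits of 4 not drawn. Proteasome subunits lie below the dashed median of all genes (-0.13) except Psmd9 (-0.10), amid other abundant genes that also lie low, and Psmb8, Psmb9 and Psmb10 lie above 0.

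A list of 20 proliferation genes also fell in all 20 cases, against 42.0% of all tested genes called lower. Its summed level was 957 to 1296 FPKM in null and 2481 to 2500 FPKM in WT. The part of this list in the fall of the subunits was not tested. Of the null libraries, null B read lowest for 29 of the 34 subunits, and null A highest for 20. Without null B the median log2 change of the members was -0.69 and 32 were called lower. Of the WT libraries, WT C read highest for 6 of the 7 beta subunits but for only 2 of the 7 alpha subunits.

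**Figure D2:**
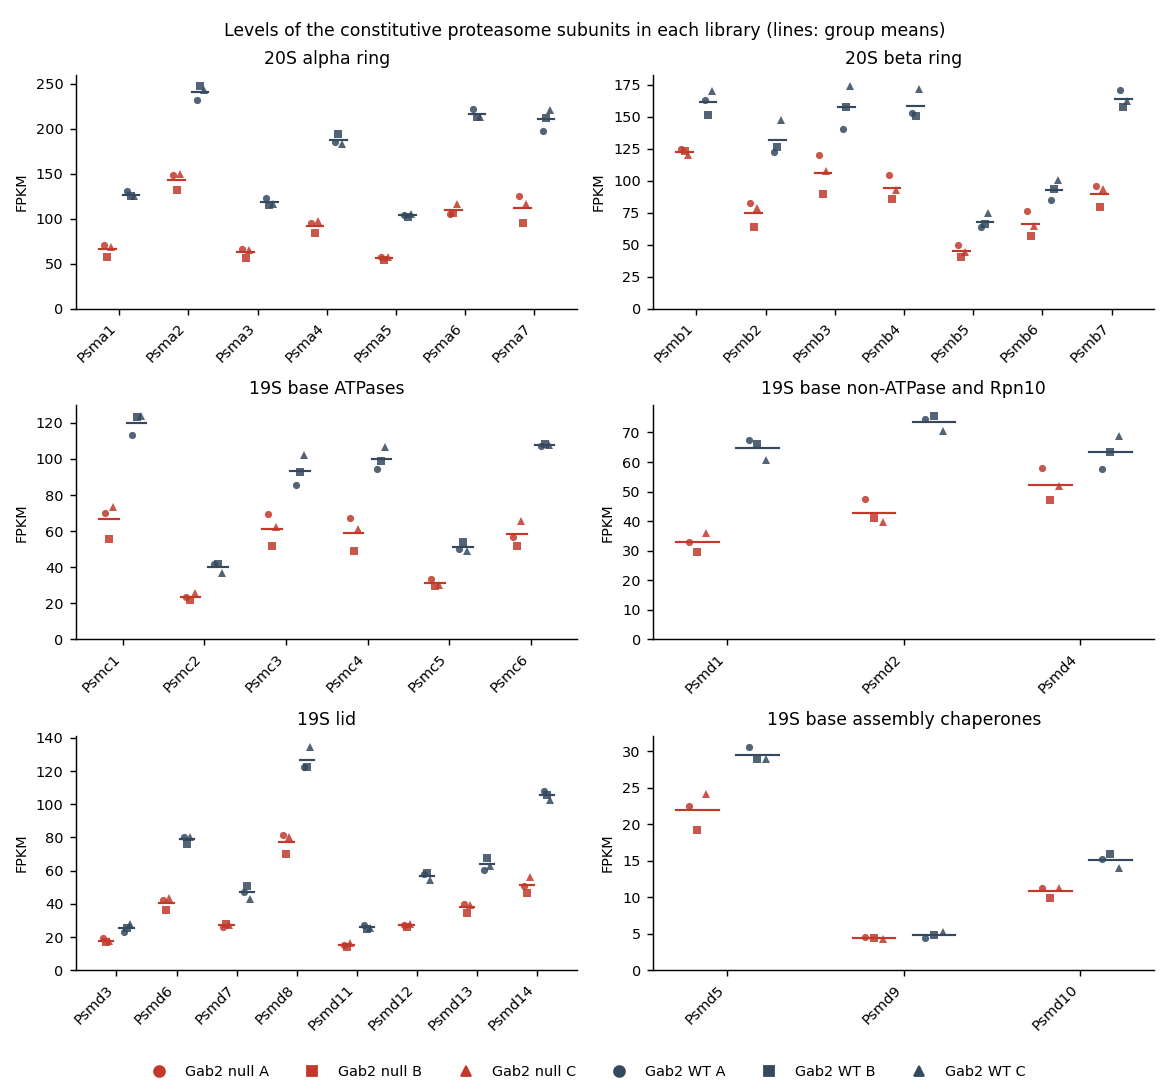
FPKM of each subunit in every library, by subcomplex, null to the left of WT, with lines at the group means. Null points lie below WT points for each subunit except Psmd4 and Psmd9, whose groups overlap.

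The alpha ring, which builds the gate, fell in all 7 members (-1.02 to -0.75, median -0.91). All 7 were called lower under each rescaling but the common total, where 3 were. Of all tested genes, 42.0% were lower on the deposited scale and 10.1% under a common total. Psma4 (alpha 3) changed most, at 94.8, 83.8 and 97.6 FPKM in null A, B and C, against 185, 194 and 183 FPKM in WT libraries A to C. Its log2 change was -1.02 (SE 0.080, limma adjusted p = 4.3e-05). Psma2 (alpha 2) changed least and was the most abundant of all 34 in both groups, with 148, 132 and 149 FPKM in null against 232, 248 and 243 FPKM in WT (log2 change -0.75, SE 0.079, adjusted p = 0.000129). The groups of both subunits were far apart relative to their spread.

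Psma6 (alpha 1) gave 105, 106 and 117 FPKM in null and 221, 213 and 213 FPKM in WT. Psma1 (alpha 6) gave 71.2, 57.3 and 68.6 FPKM in null and 131, 125 and 125 FPKM in WT. Psma7 (alpha 4) gave 125, 95.3 and 117 FPKM in null and 198, 212 and 221 FPKM in WT. Null B was the lowest library for Psma1 and Psma7, but not for Psma6. Psma3 (alpha 7) measured 65.8, 56.2 and 65.2 FPKM in null, against 122, 115 and 116 FPKM in WT. Psma5 (alpha 5) measured 57.5, 53.6 and 57.8 FPKM in null, against 104.4, 101.4 and 105.2 FPKM in WT, the lowest level of the ring in both groups.

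The beta ring fell in all 7 members too, over a range of -0.87 to -0.39 (median -0.60). This call depended on scaling: 7 beta subunits were lower under median of ratios and 3 under quantile normalization. Under a common total 0 were lower, and 4 with small RNA genes out of that total. Of all tested genes, 32.7%, 33.1%, 10.1% and 20.6% were lower in these cases, in the same order. Psmb7 (beta 2), the trypsin-like catalytic subunit, changed most: it read 96.2, 79.3 and 93.9 FPKM in null and 171, 158 and 162 FPKM in WT (log2 change -0.87, SE 0.091, limma adjusted p = 0.000123). Psmb5 (beta 5), the chymotrypsin-like subunit and main target of bortezomib, read 50.1, 40.2 and 44.2 FPKM in null and 63.5, 66.3 and 74.5 FPKM in WT (log2 change -0.60, SE 0.099, adjusted p = 0.00118). Psmb6 (beta 1), the caspase-like subunit, read 76.2, 57.1 and 64.8 FPKM in null and 85.1, 93.8 and 100.3 FPKM in WT (log2 change -0.50, SE 0.115, adjusted p = 0.00614). Null A came closest to WT for Psmb5 and Psmb6. In none of the catalytic genes did the groups overlap, and 45.1% of all tested genes likewise had every null value below every WT value.

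The structural beta subunits ranged in log2 change between -0.81 and -0.39. Psmb1 (beta 6) changed least of the ring, with 125, 123 and 120 FPKM in null against 163, 151 and 171 FPKM in WT (log2 change -0.39, SE 0.073, limma adjusted p = 0.00208), and its sign turned under quantile normalization (0.073). It stood at rank 2 of the 34 levels in null and at rank 6 in WT. Psmb2 (beta 4) had 82.4, 64.2 and 78.5 FPKM in null and 122, 126 and 148 FPKM in WT. Psmb3 (beta 3) had 120, 89.7 and 108 FPKM in null and 140, 158 and 174 FPKM in WT, with the largest SE of all members (0.126). Psmb4 (beta 7) had 105, 86.0 and 92.5 FPKM in null and 153, 151 and 172 FPKM in WT. Psmb3 had the largest SD of the ring in both groups, while Psmb1 was nearly level across the null libraries.

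Alpha and beta subunits are used in equal numbers in the 20S particle. The beta sum used here left out Psmb8, Psmb9 and Psmb10, which can take beta positions. These summed to 210.3 to 248.5 FPKM in null and 151.7 to 192.9 FPKM in WT, so the sums do not measure that balance. The ratio of summed alpha to summed beta FPKM within a library does not change when a library is multiplied by a factor. That ratio was 1.02, 1.08 and 1.12 in null A, B and C, against 1.33, 1.34 and 1.204 in WT A, B and C (1.07 ± 0.050 and 1.29 ± 0.075, SD, n = 3 each). The groups did not overlap, and the ratio was not tested, being a score over chosen members. Alpha over lid was 2.21, 2.15 and 2.18 in null against 2.27, 2.27 and 2.27 in WT, a small difference without overlap. Alpha over ATPase sums also separated the groups, at 2.08, 2.25 and 2.11 in null against 2.43, 2.33 and 2.29 in WT, as did beta over lid sums, at 2.17, 1.99 and 1.95 in null against 1.71, 1.70 and 1.89 in WT. None of these sums was tested. The ratios of beta to ATPase and of ATPase to lid sums overlapped between the groups, the last at 1.062, 0.955 and 1.03 in null against 0.937, 0.975 and 0.991 in WT.

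**Figure D3:**
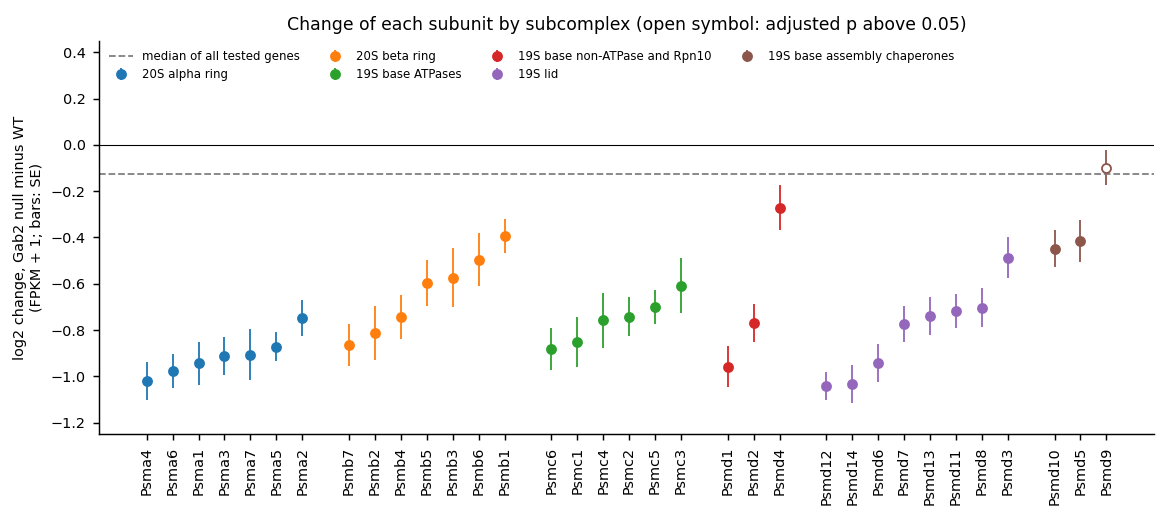
Log2 change (null minus WT, on FPKM + 1) with its SE for each subunit, ordered within its subcomplex; the open symbol is Psmd9, the only member not called, and the dashed line is the median of all tested genes (-0.13). The alpha ring lies between -1.02 and -0.75, and the beta ring spans -0.87 to -0.39 and the lid -1.04 to -0.49.

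The 6 ATPases of the base, which thread substrates into the barrel, fell by similar amounts (-0.88 to -0.61, median -0.75). Under a common total 0 of the 6 were called lower, against 10.1% of all tested genes. Under the other rescalings 5 or 6 were lower, against 20.6% to 33.1% of all tested genes. Psmc6 (Rpt4) changed most, at 56.9, 52.0 and 65.7 FPKM in null against 107, 108 and 108 FPKM in WT (log2 change -0.88, SE 0.091, limma adjusted p = 0.000116). Psmc3 (Rpt5) changed least, at 69.5, 51.8 and 62.4 FPKM in null against 85.6, 92.7 and 102 FPKM in WT (log2 change -0.61, SE 0.118, adjusted p = 0.00259). For both genes null B was the lowest library.

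Psmc1 (Rpt2) stood at 70.3, 55.8 and 73.3 FPKM in null and at 113, 123 and 124 FPKM in WT, the highest level of the ring in both groups. Psmc4 (Rpt3) stood at 67.0, 49.0 and 61.3 FPKM in null and at 94.4, 98.7 and 107 FPKM in WT. The lowest members were Psmc5 and Psmc2, although each ATPase is present in the same number per particle. Psmc5 (Rpt6) stood at 33.4, 29.3 and 30.4 FPKM in null and at 50.01, 54.01 and 49.03 FPKM in WT. Psmc2 (Rpt1) stood at 23.5, 21.7 and 25.5 FPKM in null and at 41.6, 41.8 and 36.8 FPKM in WT.

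Psmd1 and Psmd2 encode the large scaffold subunits of the base, and Psmd4 a ubiquitin receptor at the hinge between base and lid. Psmd1 (Rpn2) was at 33.0, 29.7 and 36.1 FPKM in null, against 67.5, 66.1 and 60.5 FPKM in WT (log2 change -0.96, SE 0.087, limma adjusted p = 7.09e-05). Psmd2 (Rpn1) was at 47.4, 41.1 and 39.9 FPKM in null, against 74.4, 75.4 and 70.6 FPKM in WT. Psmd4 (Rpn10) was at 58.0, 47.3 and 51.9 FPKM in null, against 57.7, 63.5 and 68.9 FPKM in WT, so that null A lay above WT A. The Psmd4 gene spans positions 95032694 to 95042614 of chromosome 3, minus strand (GRCm38). Its log2 change was -0.27 (SE 0.099, adjusted p = 0.0416). The call was lost under each of the 4 rescalings, without null B (-0.20), null C (-0.27), WT B (-0.27) or WT C (-0.21), with the replicate block and without a filter, and the sign turned under 3 rescalings (0.006, 0.104 and 0.156). Over the main analysis and all alternatives its adjusted p ran between 0.0139 and 0.988. Its level relative to the median member of a library was 0.938 in null and 0.658 in WT.

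The lid fell in all 8 members (-1.04 to -0.49, median -0.76) and held both the member with the largest fall and the deubiquitinase. Under a common total 3 lid genes were called lower, against 10.1% of all tested genes. Psmd12 (Rpn5), a scaffold of the lid at positions 107479484 to 107504362 of chromosome 11 (plus strand), fell most of all 34: it gave 27.4, 26.3 and 27.7 FPKM in null and 57.8, 58.7 and 54.2 FPKM in WT (log2 change -1.04, SE 0.062, limma adjusted p = 1.88e-05). Psmd14 (Rpn11), the metalloprotease that cuts ubiquitin chains from substrates, gave 50.6, 46.3 and 56.4 FPKM in null and 108, 106 and 102 FPKM in WT (log2 change -1.03, SE 0.083, adjusted p = 4.71e-05). Psmd3 (Rpn3) changed least of the lid, at 19.1, 16.7 and 17.7 FPKM in null and 22.9, 25.6 and 27.9 FPKM in WT (log2 change -0.49, SE 0.088, adjusted p = 0.00179). Null lay below WT without overlap in all 8 lid genes, as it did in 45.1% of all tested genes.

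Psmd7 (Rpn8), the inactive partner of Psmd14, averaged 26.9 ± 0.746 FPKM in null (26.2, 27.7 and 27.0) and 46.8 ± 4.04 FPKM in WT (46.9, 50.8 and 42.8; SD, n = 3 each). Psmd6 (Rpn7) had 42.0, 36.4 and 43.6 FPKM in null and 80.2, 75.8 and 80.5 FPKM in WT. Psmd8 (Rpn12), the most abundant lid transcript, had 81.4, 70.1 and 80.5 FPKM in null and 122, 123 and 134 FPKM in WT. The low end of the lid was held by Psmd3 and Psmd11. Psmd11 (Rpn6) had 15.5, 14.1 and 16.3 FPKM in null and 27.1, 25.0 and 25.2 FPKM in WT. Psmd13 (Rpn9) had 39.9, 34.2 and 39.4 FPKM in null and 60.6, 67.6 and 63.0 FPKM in WT.

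Psmd5, Psmd9 and Psmd10 carry subunit names but encode chaperones that hold the ATPases while the base is built and leave the finished particle. They were the members with the lowest or near-lowest levels. Of the 3, 2 were called lower (median -0.42), against 42.0% of all tested genes. The lower calls numbered 2 under median of ratios, 1 under quantile normalization and 0 under a common total with or without small RNA genes. Of all tested genes, 32.7%, 33.1%, 10.1% and 20.6% were lower in these cases, the last being the total without small RNA genes. Psmd5 had 22.4, 19.2 and 24.2 FPKM in null and 30.6, 28.9 and 28.9 FPKM in WT (log2 change -0.42, SE 0.090, limma adjusted p = 0.00434). Psmd10, known as gankyrin, had 11.3, 9.84 and 11.3 FPKM in null and 15.3, 16.0 and 14.0 FPKM in WT (log2 change -0.45, SE 0.079, adjusted p = 0.00159). Both showed lower null values without overlap, as did 45.1% of all tested genes.

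Psmd9 was the only member not called, at 4.56, 4.37 and 4.22 FPKM in null and 4.36, 4.77 and 5.17 FPKM in WT (log2 change -0.10, SE 0.076, limma adjusted p = 0.284). The gene spans positions 123169413 to 123250131 of chromosome 5, plus strand. Its values overlapped, and its sign turned under 3 rescalings (0.032, 0.133 and 0.216), the last of which called it higher. Over all analyses its adjusted p ran between 0.0347 and 0.722. The summed share of protein-coding FPKM of the 3 chaperone genes overlapped between the groups, at 0.0137%, 0.0132% and 0.0148% in null and 0.0151%, 0.0146% and 0.0129% in WT.

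Subunits that enter the same particle in equal number were read at levels spread over about an order of magnitude. Without the chaperones, the highest member over the lowest was 9.61, 9.37 and 9.16 in null A, B and C, against 10.2, 9.92 and 9.62 in WT A, B and C. In every library the highest was Psma2 of the alpha ring and the lowest a lid gene. These ratios therefore do not give the spread within the core or within the cap. The coefficient of variation over these 31 levels was between 51.5% and 52.5% in null and between 51.8% and 52.6% in WT. The order of the 34 levels was nearly the same in both groups (Spearman rho 0.967 across genes, which share libraries and are not independent). Members with higher WT levels tended to have more negative changes (Spearman rho -0.43 over 34 genes, -0.29 over 31 without the chaperones), given as a description. The WT level enters both values, which by itself favours a negative rho, and log2(FPKM + 1) shrinks the changes of low genes. No conclusion is drawn from it.

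The size of the fall, and the number of calls, depended on how libraries were scaled. After median-of-ratios rescaling 32 members were called lower (median -0.60), with 32.7% of all tested genes lower. After quantile normalization there were 26 (median -0.35), with 33.1% of genes lower. After rescaling to a common total of FPKM only 7 were called (median -0.47), with 10.1% of genes lower. With small RNA genes left out of that total 26 were called lower and 1, Psmd9, higher (median -0.38), with 20.6% of genes lower. The median of all tested genes moved to 0.010, -0.030, 0.12 and 0.20 in these cases and the median member was below it in each. Psma1, Psma4, Psma6, Psmd1, Psmd6, Psmd12 and Psmd14 were called lower in the main analysis and under each of the 19 alternatives.

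**Figure D4:**
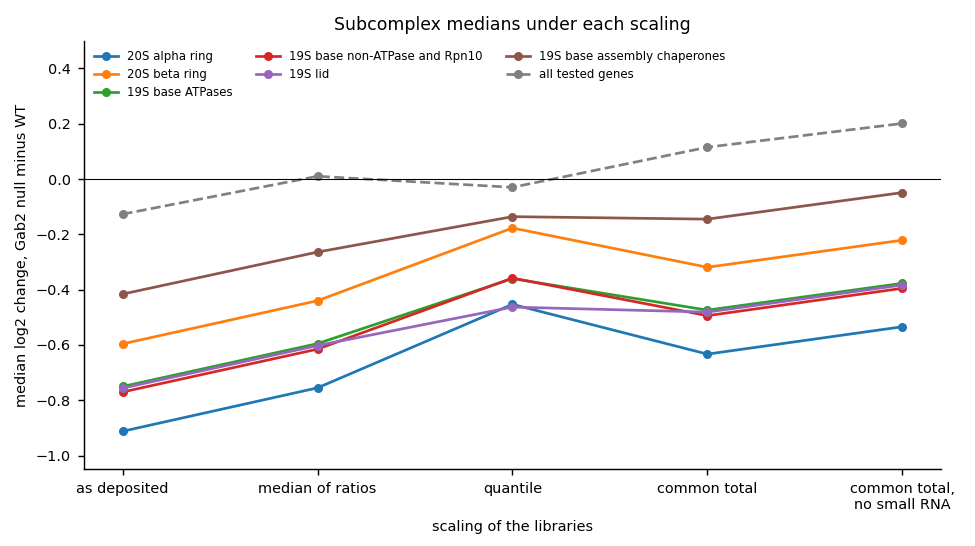
Median log2 change (null minus WT) of each subcomplex on the deposited scale and under 4 rescalings, with the median of all tested genes dashed. Every subcomplex median stays below 0 and below the dashed line, with the chaperones nearest to it and the beta ring next.

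The inducible catalytic subunits, which replace Psmb5, Psmb6 and Psmb7 in the immunoproteasome, went the other way or were not called. Psmb8, the counterpart of Psmb5, rose, with 158, 140.3 and 145 FPKM in null against 99.8, 118 and 126 FPKM in WT (log2 change 0.37, limma adjusted p = 0.013). Psmb9, the counterpart of Psmb6, rose, with 55.8, 44.1 and 49.8 FPKM in null against 30.8, 32.2 and 37.0 FPKM in WT (log2 change 0.57, adjusted p = 0.00211). Psmb10, the counterpart of Psmb7, had 34.6, 25.9 and 25.3 FPKM in null and 21.1, 24.2 and 30.2 FPKM in WT and was not called (log2 change 0.18, adjusted p = 0.349), but was called higher under 2 rescalings. The testis subunit Psma8 and the thymus subunit Psmb11 had group means under 0.1 FPKM.

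Ratios of the counterparts within a library do not change when a library is multiplied by a factor, though quantile normalization would change them. Psmb8 over Psmb5 was 3.16, 3.49 and 3.29 in null A, B and C, against 1.57, 1.78 and 1.69 in WT A, B and C (log2 difference 0.98). Psmb9 over Psmb6 was 0.733, 0.772 and 0.768 in null, against 0.361, 0.343 and 0.369 in WT (log2 difference 1.08). Psmb10 over Psmb7 was 0.360, 0.327 and 0.269 in null, against 0.123, 0.153 and 0.186 in WT (log2 difference 1.056). None of the 3 ratios overlapped between the groups, and an exact two-sided permutation test gave p = 0.1 for each (adjusted 0.1 over 3 ratios), the smallest that 3 against 3 allow.

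**Figure D5:**
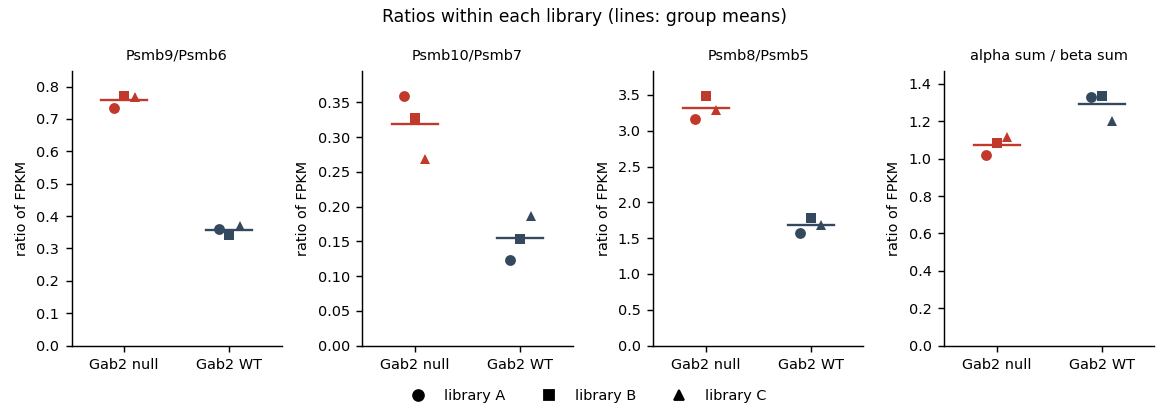
Ratios of FPKM within each library, null to the left of WT, with lines at the group means. They are the 3 pairs of inducible over constitutive catalytic subunit, and summed alpha over summed constitutive beta subunits. The inducible ratios are higher in every null library, and the alpha to beta ratio is lower in every null library (at most 1.12, against at least 1.204 in WT).

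All 5 tested chaperones of 20S assembly were called lower, against 42.0% of all tested genes (median -0.765, against -0.13 for all tested genes). Under a common total 2 of the 5 were lower, and 3 under quantile normalization or with small RNA genes out of the total. Of all tested genes, 10.1%, 33.1% and 20.6% were lower in these cases, in the same order. Psmg1, which pairs with Psmg2 as an alpha-ring chaperone, read 10.6, 9.03 and 9.34 FPKM in null and 31.8, 30.7 and 30.1 FPKM in WT (log2 change -1.58, limma adjusted p = 9.5e-06), a larger change than that of any subunit. Pomp, which starts beta-ring assembly, read 78.8, 69.3 and 71.0 FPKM in null and 140, 138 and 141 FPKM in WT (log2 change -0.93, adjusted p = 4.13e-05). Psmg3 (adjusted p = 0.0451) overlapped between the groups, and its call was lost under rescaling. The 19S subunits that the symbol rule does not reach, Adrm1 and Shfm1, both fell, by 0.45 and 0.48 on the log2 scale, but neither call held under quantile normalization or either common total, and the change of Shfm1 was -0.001 under quantile normalization.

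Among regulators bound to the particle, the changes were mixed. Of the activators and the inhibitor, 3 of 5 were called lower and 0 higher (median -0.39), against 42.0% of all tested genes. Under a common total 1 was lower (median -0.11), and with small RNA genes out of that total 2 were lower and 1 higher (median -0.012). Of all 9916 tested genes, 10.1% and 20.6% were lower in these cases (medians 0.12 and 0.20), and 4473 were higher in the second. Psme3, the nuclear activator PA28 gamma, fell to 34.4 ± 2.52 FPKM in null, against 70.0 ± 4.35 FPKM in WT (SD, n = 3 each; log2 change -1.004, limma adjusted p = 4.4e-05). The interferon-inducible pair Psme1 and Psme2 fell by 0.39 and 0.68 on the log2 scale, while the sign of Psme1 turned under quantile normalization (0.080). Psme4 (log2 change 0.14, adjusted p = 0.184) and the inhibitor Psmf1 (-0.14, adjusted p = 0.155) were not called.

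Of 9 tested ubiquitin factors that dock on the proteasome 8 were called lower and 0 higher (median -0.47), against 42.0% of all tested genes. The lower calls numbered 5 under quantile normalization, 2 under a common total and 4 with small RNA genes out of that total. Of all tested genes, 33.1%, 10.1% and 20.6% were lower in these cases. The deubiquitinases led: Uchl5 was at 11.6, 11.7 and 11.5 FPKM in null and 35.9, 34.6 and 30.5 FPKM in WT (log2 change -1.46, limma adjusted p = 1.31e-05), and Usp14 had a log2 change of -0.99 (adjusted p = 0.000105). The shuttle receptor Rad23b had a change of -0.92 (adjusted p = 3.69e-05). Ubqln2 was not called (0.094, adjusted p = 0.563). Of 8 genes of the p97 segregase, which extracts substrates for the proteasome, 4 were called lower and 0 higher (median -0.17), a share near the 42.0% of all tested genes. Rescaling to a common total left 0 calls, and with small RNA genes out of the total 0 were lower and 3 higher (median 0.19). In that last case 4473 of all 9916 tested genes were higher and 20.6% lower, with a median of 0.20, near that of the list. Vcp itself read 97.7, 91.9 and 98.9 FPKM in null and 147, 153 and 128 FPKM in WT.

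NFE2L1 is the factor that restores proteasome gene expression when proteasome activity falls short. Nfe2l1 read 9.17, 8.88 and 9.25 FPKM in null and 7.94, 9.47 and 7.98 FPKM in WT, was not called on the deposited scale (log2 change 0.098, limma adjusted p = 0.305) and was called higher under some rescalings. Of the 9 tested genes around it 3 were called higher and 1 lower (median 0.15), against 23.3% and 42.0% of all tested genes. Under median of ratios 7 were higher and 1 lower, and with small RNA genes out of the common total 7 were higher and 0 lower. Of all 9916 tested genes, 3143 and 4473 were higher in these cases, and 32.7% and 20.6% lower. Mafk, a small partner of NFE2L1 and NFE2L2, rose by 0.66 (adjusted p = 0.000122), Nfe2l2 by 0.48 and the ubiquitin ligase Syvn1 by 0.47 on the log2 scale. Ngly1, the glycanase that processes NFE2L1, fell by 0.48. The ubiquitin and ribosomal protein fusion gene Rps27a and the ubiquitin-activating enzymes Uba1 and Uba6 fell, calls lost under a common total, the sign of Uba1 turning under quantile normalization (0.017).

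The lid shares its architecture with the COP9 signalosome, which trims NEDD8 from ubiquitin ligases, and with the translation factor eIF3. All 9 COP9 genes were called lower (median -0.88), against 42.0% of all tested genes. Under quantile normalization 7 were lower, against 33.1% of all tested genes, and under a common total 2, against 10.1%. The largest change was that of Cops4, at 26.2, 25.1 and 24.7 FPKM in null against 55.6, 52.7 and 59.6 FPKM in WT (log2 change -1.11, limma adjusted p = 2.02e-05). Cops5, the counterpart of Psmd14, had a log2 change of -0.92. Cops7b changed least (-0.19, adjusted p = 0.0377), and its sign turned under both rescalings to a common total (0.061 and 0.15). Of 13 eIF3 genes 11 were called lower and 1 higher (median -0.71), against 42.0% and 23.3% of all tested genes. Under quantile normalization 8 were lower and 2 higher, and under a common total 1 was lower and 0 higher. Of all tested genes, 33.1% and 10.1% were lower under these 2 rescalings. The higher gene was Eif3f, which rose by 0.25 (adjusted p = 0.0157), a call lost under some alternatives (adjusted p up to 0.122). The lid median of -0.76 lay between those of its relatives, and no difference between the complexes was tested.

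The counts rest on genes whose copies and neighbours could share reads. For 7 of the 34 members another annotated gene matched at least 300 bases of the longest transcript at 95% identity or more. These were processed pseudogenes of Psma3, Psma4, Psma5, Psmb5, Psmc1 and Psmd2 and an overlapping gene model at Psmd1, none of which had a row of its own in the expression table. Values of these 7 are therefore uncertain, since the sources used here do not say how fragments matching several places were assigned. A further gene of the table overlapped 7 members on the opposite strand, the most abundant being Sirt3 beside Psmd13, at a mean of 9.06 FPKM. On the same strand 2 members were overlapped, Psma2 by AW209491 (mean 4.24 FPKM) and Psmb5 by Mir686 (mean 1.45e-05 FPKM). The libraries were stranded, and the strand setting of the quantification is not given.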

How the data were processed

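The authors deposited FPKM for 6 libraries. Per the labels' protocols, stranded libraries of polyadenylated RNA were read as paired ends, and the submitters' processing notes name the tools Cufflinks and Bowtie and the builds GRCm38 and mm10, without versions or roles. The sources used here do not give the annotation, filters or scaling. The combined table and the tables of single libraries held the same values. For 256 symbols found on several rows, only the most abundant row was used. FPKM are not counts, so limma 3.58.1 (R 4.3.3) was fitted to log2(FPKM + 1) with a variance trend for the 9916 genes averaging 1 FPKM or more, and its two-sided p-values were adjusted over all of them (Benjamini-Hochberg, 0.05). Fold changes on this scale understate those of low genes. Ratios were tested by exact permutation. Depth, taken from steps among low FPKM, is approximate and supports no counting interval. Positions come from GENCODE vM21 (GRCm38), which matched all 34 members, and sequences from RefSeq (GRCm38.p6).

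Members, lists, tests and alternatives were chosen with earlier results of these data known, and rescaling without small RNA genes was added after seeing the data. Values in every library are given for catalytic subunits, for the members of each subcomplex with the largest and smallest change, and for members whose call or sign changed under a rescaling, with the rest for completeness. In other lists up to 4 called genes are named, with some uncalled genes chosen after their values were seen. The letters A, B and C were not taken to pair libraries: deviations from group means correlated at 0.074, 0.36 and 0.13 for the same letter. A result of the list of ubiquitin genes is not reported here.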

Additional observations from a re-analysis of the deposited data

How the results depend on the processing

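Over 19 alternatives and the 34 subunits, 645 values were recomputed: 595 kept direction and call, 43 kept direction but lost the call, and 7 changed sign. The number called lower (33) was 32 to 33 when a library was left out and 7 after rescaling to a common total of FPKM; the cause was not tested. The number called higher (0) was 1, Psmd9, when small RNA genes were left out of the total. Signs turned for Psmb1 (0.073) and Psmd4 (0.156) under quantile normalization, for Psmd4 (0.006) and Psmd9 (0.133) under a common total, for both with small RNA genes left out of the total (0.104 and 0.216) and for Psmd9 under median of ratios (0.032). With a replicate block on the letters, which share only a letter, 32 members were called lower, Psmd4 losing its call; null A correlated best with WT A, null B with WT B and null C with WT C, a hint from the data and not the design. All tested genes called lower numbered 4168, against 1003 after a common total and 2047 without small RNA genes in that total. In contrast, all tested genes called higher numbered 2311, against 4473 in the last case and 1364 with a minimum of 5 FPKM, where Psmd9 was not tested. With each library left out, the log2 difference was 0.933 to 1.024 for the Psmb8/Psmb5 ratio, 1.052 to 1.106 for the Psmb9/Psmb6 ratio and 0.905 to 1.201 for the Psmb10/Psmb7 ratio. FPKM carry no counts, so no counting limits can be given.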
